A study of Homo sapiens with 5 samples.

Results

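The introns described here are those measured in both control libraries of a DLD-1 intron retention study. They were matched on chromosome, start, end and strand between the table with the SNW1 siRNA library and the table with the WBP11 auxin library, and kept where intron depth plus spliced reads reached 10 in both controls. Of 34560 introns listed in any of the 3 tables, 13420 were in both of these tables and 13297, in 5165 genes, passed the depth minimum. The 123 left out had a depth plus spliced reads of at most 9.95 in at least 1 of the controls.

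DLD-1 is a human colorectal adenocarcinoma line, and each of the study's 5 groups is 1 library of polyA RNA. The auxin control carries the label DLD-1 LacZeo osTIR1 and received 500 µM auxin for 48 h. osTIR1 is the rice auxin receptor, an F-box protein that brings proteins with an auxin degron to a ubiquitin ligase, and the study text names a degron-tagged WBP11 transgene for the depleted line alone. The control is labelled DLD-1 LacZeo with no treatment, although the file headers call it control RNAi. The auxin control is the comparator of a WBP11 auxin library, and the control that of SNW1 and WBP11 siRNA libraries (100 nM, 72 h each). Auxin, the osTIR1 transgene, any handling for RNAi and the library itself differ together between the 2 controls and cannot be told apart. The labels do not say whether either line is a single clone.

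An intron is retained when it stays in a polyadenylated transcript whose other introns were removed. In human cells retained introns tend to be short, rich in G and C and flanked by weak splice sites. Many such transcripts stay in the nucleus or are degraded by nonsense-mediated decay, and retention is a known means by which splicing factors and RNA-binding proteins limit their own expression. Retention is given here as the deposited ratio in percent, in essence the depth of an intron divided by the sum of that depth and its spliced reads. The deposited ratio departed from this quotient by over 1 point at 413 introns in the auxin control and 241 in the control. Intervals are 95% Wilson intervals for a ratio and 95% Newcombe intervals for a difference, and they cover counting error only. Both take depth plus spliced reads as the count, although depth is an average coverage, so they are approximate. With 1 library in each group no test was possible, and an intron was called higher or lower in the auxin control when the ratios differed by at least 10 percentage points.

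Introns that stayed in most transcripts of both controls came first. The 10 with the highest smaller value of the 2 controls were chosen at a depth of at least 50, without exon overlap and with 1 intron a gene. Sequence was taken from GENCODE release 29 transcripts that span the intron, and 7 of the 10 had one. GTAAGT or GTGAGT, openings that are common at human 5′ splice sites, began 1 of those 7 and 23.8% of all sequenced introns. The 4 sequences below are shown because the bases after GT in their opening depart from these. Capitals mark the first 6 and the last 3 bases. Intron numbers count from the 5′ end of an annotated transcript. All coordinates are GRCh38 and each sequence reads 5′ to 3′ on the strand of the gene.
AMH intron 2 (chr19:2250480-2250651, plus strand): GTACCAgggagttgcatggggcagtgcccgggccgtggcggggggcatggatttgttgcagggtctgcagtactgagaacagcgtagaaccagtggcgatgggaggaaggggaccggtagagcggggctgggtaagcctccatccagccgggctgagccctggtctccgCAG
EME2 intron 4 (chr16:1775133-1775314, plus strand): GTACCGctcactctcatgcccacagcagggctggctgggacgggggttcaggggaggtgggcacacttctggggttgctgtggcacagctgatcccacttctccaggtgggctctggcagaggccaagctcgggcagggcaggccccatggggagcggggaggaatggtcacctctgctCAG
TAF1C intron 9 (chr16:84181464-84181591, minus strand): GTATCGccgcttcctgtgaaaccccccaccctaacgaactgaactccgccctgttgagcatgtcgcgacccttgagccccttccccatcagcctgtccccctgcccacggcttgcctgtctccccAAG
PAN2 intron 23 (chr12:56319182-56319307, minus strand): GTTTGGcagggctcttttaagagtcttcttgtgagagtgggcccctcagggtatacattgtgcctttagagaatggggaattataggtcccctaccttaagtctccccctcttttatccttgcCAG

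A second set of sequences shows introns that differed most between the controls. SHFL, ANO9 and ARSA hold 3 of the introns with the largest excess in the auxin control, and intron 1 of CDCA5, a cohesion gene, was higher as well. The introns of MAN2C1, CXXC1 and BUB1B were lower in the auxin control. ANO9 and CXXC1 share the opening GTGAGT and lie on opposite sides of the comparison.
SHFL intron 6 (chr19:10091354-10091475, plus strand): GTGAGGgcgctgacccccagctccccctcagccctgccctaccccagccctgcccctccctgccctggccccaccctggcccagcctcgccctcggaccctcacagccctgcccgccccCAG
ANO9 intron 10 (chr11:429653-429757, minus strand): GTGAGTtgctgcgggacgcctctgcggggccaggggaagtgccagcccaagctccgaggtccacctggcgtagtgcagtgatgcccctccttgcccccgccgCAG
ARSA intron 2 (chr22:50627053-50627165, minus strand): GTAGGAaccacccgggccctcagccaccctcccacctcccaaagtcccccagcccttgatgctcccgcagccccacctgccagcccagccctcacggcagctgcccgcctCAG
CDCA5 intron 1 (chr11:65083724-65083932, minus strand): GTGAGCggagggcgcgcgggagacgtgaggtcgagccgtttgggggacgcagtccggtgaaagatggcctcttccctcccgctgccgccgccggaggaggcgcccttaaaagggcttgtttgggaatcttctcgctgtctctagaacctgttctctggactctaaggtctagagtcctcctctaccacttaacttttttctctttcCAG
MAN2C1 intron 16 (chr15:75359426-75359619, minus strand): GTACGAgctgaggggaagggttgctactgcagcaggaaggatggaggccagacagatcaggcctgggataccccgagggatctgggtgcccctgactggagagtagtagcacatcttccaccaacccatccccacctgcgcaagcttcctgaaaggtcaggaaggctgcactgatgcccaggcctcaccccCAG
CXXC1 intron 4 (chr18:50285929-50286021, minus strand): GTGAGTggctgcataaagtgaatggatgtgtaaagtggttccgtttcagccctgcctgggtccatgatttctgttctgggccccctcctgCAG
BUB1B intron 7 (chr15:40185380-40185550, plus strand): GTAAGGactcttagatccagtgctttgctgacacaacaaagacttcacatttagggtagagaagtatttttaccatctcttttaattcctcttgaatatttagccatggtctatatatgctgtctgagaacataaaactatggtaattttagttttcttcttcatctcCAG

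Retention was higher in the auxin control at most of the compared introns, by a small amount at the median one. The median intron had 2.75% retention in the auxin control and 1.68% in the control, and the median difference was 0.823 points (quartiles -0.0807 and 2.61). The auxin control was above the control at 71.4% of introns, below it at 27.3% and equal at 184. The 95th percentile lay at 24.6% in the auxin control and 18.1% in the control. Differences stayed within 2 points at 61.7% of introns and within 10 points at 93.9%. An intron entered only at 1% or more in 1 library of each of the 2 tables, so these values depend on the depleted libraries as well. Over the same introns the medians were 5.57% with SNW1 siRNA and 4.83% with WBP11 auxin. Leaving out introns under 1% in both controls gave a median difference of 1.20 points.

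At least 10% retention was found at 2184 introns (16.4%) in the auxin control and at 1412 (10.6%) in the control. Both controls reached it at 1202 introns in 825 genes. These are 55.0% of the introns at 10% or more in the auxin control and 85.1% of those in the control. At least 50% was reached by 158 introns in the auxin control, by 112 in the control and by 92 in both. The ratio was 0 at 441 introns in the auxin control and at 798 in the control. Across introns the ratios of the controls had a Pearson r of 0.885 and a Spearman rho of 0.732 (n = 13297), and 0.935 and 0.819 at the 6212 introns with a depth of 100 or more in both. Introns of 1 gene share its transcripts, so these values describe the 2 libraries and carry no test.

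The auxin control was higher by 10 points or more at 697 introns in 525 genes, 5.24% of those compared, and lower at 110 introns in 105 genes, 0.827%. The interval of the difference lay away from 0 at 492 of the higher and 49 of the lower introns. Genes with introns of both kinds numbered 22. Higher introns had a median of 25.7% in the auxin control and 9.73% in the control. Lower introns had a median of 12.7% in the auxin control and 29.8% in the control.

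**Figure D1:**
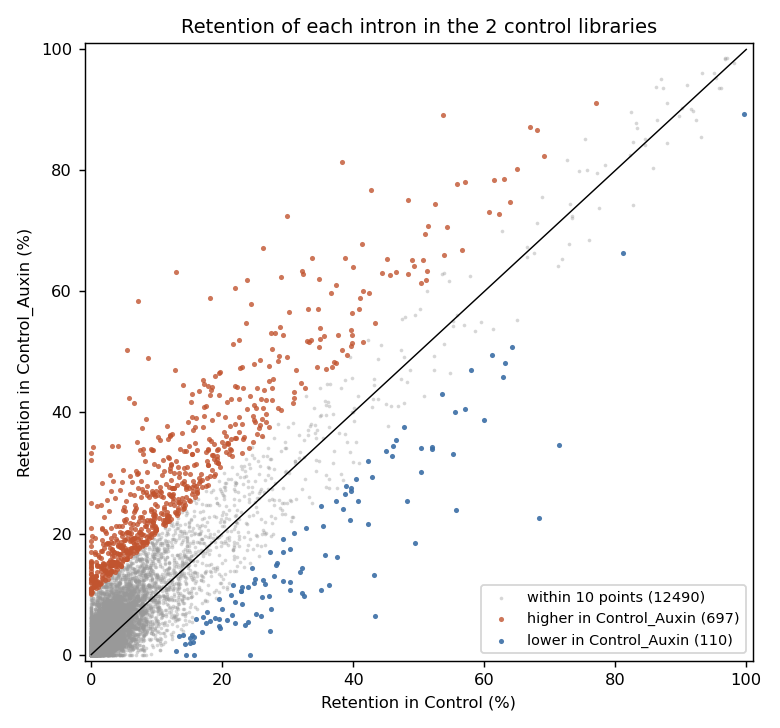
Retention (%) of each of 13297 introns, control on the horizontal and auxin control on the vertical axis, with the line of equal values. Orange points (697) are at least 10 points higher and blue points (110) at least 10 points lower in the auxin control.

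In the higher introns both parts of the ratio differed between the libraries, depth more than spliced reads. On the log2 scale with 1 added, the spliced reads of the auxin control over those of the control had a median of -0.21, which was taken as 0 for the values that follow. On this scale the spliced reads of the higher introns had a median of -0.44 and their intron depth a median of 1.29, against 0.51 for the intron depth of all introns. The depth ratio was above 0 on this scale at 626 of the 697 and at 9834 of all 13297, and the choice by retention uses the same depth. In the lower introns spliced reads had a median of 0.50 and intron depth one of -0.91.

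The libraries were of similar depth over these introns. The auxin control held 2754629 spliced reads and the control 3124704, and the median depth plus spliced reads was 108 in the auxin control and 122 in the control. The program's warnings, such as uneven coverage of the intron, stood at 22.8% of introns in the auxin control and 23.3% in the control. Of 12 epithelial marker genes 5 had listed introns in each table. Keratin 18 had 22362 spliced reads at its last intron in the auxin control and 37896 in the control. CDH1 (E-cadherin) had 676 in the auxin control and 1569 in the control. No intron of the fibroblast, endothelium or leukocyte markers was among those compared. An intron is listed only at 1% retention or more in 1 library of a table, so a missing marker says nothing of its expression. For the same reason 2691 introns under 1% in the auxin control and 4705 under 1% in the control were listed through the depleted library.

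Among the 10 introns most retained in both controls, the interval of the difference held 0 at 9 and 7 were spanned by a GENCODE transcript annotated as retaining an intron. AMH encodes anti-Müllerian hormone, and its intron 2, printed above, had 95.1% retention in the auxin control and 87.0% in the control. Its depth plus spliced reads was 224 in the auxin control and 131 in the control. The difference of 8.06 points had an interval from 2.09 to 15.2 and fell short of the 10 points. CMTM4, a partner of the immune checkpoint protein PD-L1, stood at 90.3% in the auxin control and 90.2% in the control at its 4703 bp intron 4, with a warning in both libraries. APBB3, an adaptor that binds the amyloid precursor protein, had 80.4% in the auxin control and 85.7% in the control at intron 1. CENPT, which links centromeric DNA to the kinetochore, had 80.1% in the auxin control and 75.6% in the control at intron 11. Of the 10, which were chosen for high values in both, 4 differed by at most 2 points, against 61.7% of all introns, and 5 differed by more than 5.

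EME2, a partner of the MUS81 nuclease, had 72.5% in the auxin control and 73.4% in the control at intron 4. TAF1C, a subunit of the RNA polymerase I initiation factor SL1, had 65.4% in the auxin control and 71.8% in the control at intron 9. PAN2 is the catalytic subunit of a deadenylase that trims poly(A) tails, and its intron 23 had 70.0% in the auxin control and 62.7% in the control. RGL3, an exchange factor for Ral GTPases, had 67.4% in the auxin control and 66.5% in the control at intron 1. CLASRP, a binding partner of the splicing kinase CLK4, had 56.0% in the auxin control and 55.9% in the control at intron 12. FBXL6, an F-box protein, was the 1 called intron of the 10, with 72.9% in the auxin control and 62.2% in the control at intron 1, and its interval ran from -0.0473 to 21.6 points.

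The 1202 introns at 10% or more in both controls differed from the 4620 under 2% in both. Of the 4620, 2012 were under 1% in both controls and were listed only through the depleted libraries. The second set therefore does not stand for well spliced introns at large. Their median length was 235 bp against 485 bp, and the exon sequence at their junctions (50 bases on each side) had a median GC content of 59% against 53%. An annotated retained-intron transcript spanned 43.4% of the first set and 6.69% of the second. GTAAGT or GTGAGT, read on the strand of the gene at the first 6 intron bases only, opened 130 of the 677 sequenced introns of the first set (19.2%) and 106 of the 352 of the second (30.1%). The share in all 2633 sequenced introns was 23.8%. Only 19.8% of introns had a sequence, all from annotated transcripts that retain them, so these shares do not stand for all introns.

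The excess in the auxin control was larger at shorter introns. Introns of at most 80 bp had a median of 5.21% in the auxin control and 2.67% in the control, and 116 of 829 (14.0%) were higher by 10 points against 5.24% of all. Introns of 81 to 200 bp had medians of 3.08% in the auxin control and 1.56% in the control, with 6.85% higher. Those over 2000 bp had medians of 1.69% in the auxin control and 1.28% in the control, with 21 of 1861 (1.13%) higher. The median difference was 1.92, 1.22, 0.889, 0.700 and 0.281 points in the 5 classes from short to long. Within introns whose mean of both controls was 10 to 20%, 42.2% of the shortest and 13.8% of the longest class were higher.

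**Figure D2:**
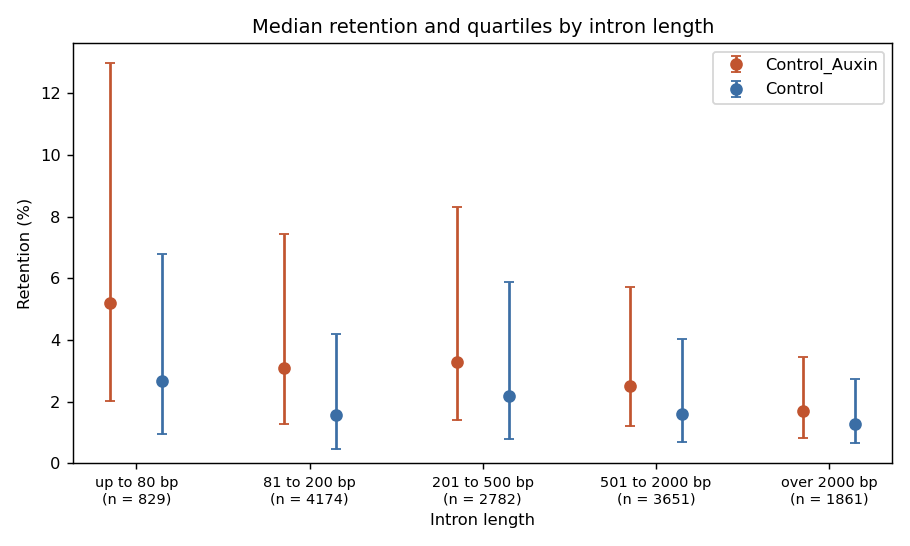
Median retention (%, points) and quartiles (bars) by intron length, auxin control in orange and control in blue. The gap is widest at introns of at most 80 bp, with 5.21% in the auxin control and 2.67% in the control, and narrowest above 2000 bp, with 1.69% and 1.28%.

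The GC content of the flanking exons moved with the excess as well. Introns were split by junction GC into 3 classes of similar size. In the lowest (51% or less), medians were 1.89% in the auxin control and 1.30% in the control, and 2.07% of introns were higher. In the highest (above 59%), medians were 3.89% in the auxin control and 2.16% in the control, and 8.92% were higher. The gradient was present within the shortest class, where 5.11%, 14.3% and 16.6% of introns were higher from the lowest to the highest GC. Short introns with GC-rich junctions held the highest share, and long introns with GC-poor junctions the lowest, 0.825%. The part of base composition in the difference was not tested. These shares were not matched for baseline retention, which also rose with junction GC.

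**Figure D3:**
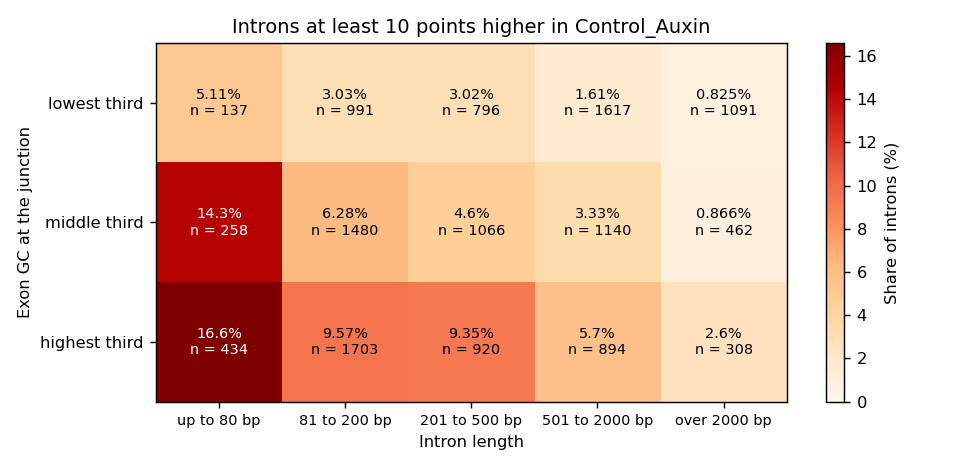
Share of introns (%) at least 10 points higher in the auxin control, by class of junction GC (rows) and intron length (columns), with the number of introns in each cell. The share is 16.6% at introns of at most 80 bp with GC-rich junctions and 0.825% at introns over 2000 bp with GC-poor junctions.

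The difference also grew toward the 3′ end of the transcript. Introns were placed in 5 classes by their relative position in the transcript. From the first class to the last, the median difference was 0.427, 0.411, 0.599, 0.894 and 1.25 points. Medians in the control stayed between 1.52% and 1.70% over these classes, while those in the auxin control ran from 2.21% in the first to 3.15% in the last. Last introns had a median of 3.15% in the auxin control and 1.70% in the control (n = 1729), and first introns 2.72% in the auxin control and 1.77% in the control (n = 602).

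Annotation marked the introns with high baseline retention. The 2154 introns spanned by a retained-intron transcript had medians of 6.74% in the auxin control and 4.25% in the control, and 11.2% were higher. The 11143 others had medians of 2.38% in the auxin control and 1.42% in the control, with 4.09% higher. Over all introns the share higher rose with the mean of both controls, from 6.72% at 5 to 10% to 42.3% at 20% or more. The shares by annotation were not matched for this mean. The 97 introns in 3′ UTRs had medians of 5.46% in the auxin control and 2.92% in the control. At the 659 introns that overlap an annotated exon the medians were 9.10% in the auxin control and 5.81% in the control, and there reads of the exon can count as retention.

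U12-type introns are removed by the minor spliceosome and tend to be spliced slowly. An opening of GTATCCTT or ATATCCTT at the first 8 bases, on the strand of the gene only, was found in 7 of the 2633 sequenced introns (0.266%), and none was called. EDC4, a scaffold of mRNA decapping, had 41.0% in the auxin control and 45.8% in the control at intron 22. TAF1C had 30.6% in the auxin control and 23.0% in the control at intron 7, upstream of the highly retained intron 9 printed above. SLC8B1, a mitochondrial sodium-calcium exchanger, had 20.5% in the auxin control and 14.2% in the control at intron 6. The 7 had a median of 7.22% in the auxin control and 4.50% in the control. All sequenced introns had 7.02% in the auxin control and 4.41% in the control. The first 2 are printed with the 8 opening bases in capitals.
EDC4 intron 22 (chr16:67881846-67881953, plus strand): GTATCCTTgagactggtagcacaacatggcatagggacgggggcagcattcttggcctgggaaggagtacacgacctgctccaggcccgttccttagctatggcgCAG
TAF1C intron 7 (chr16:84182059-84182201, minus strand): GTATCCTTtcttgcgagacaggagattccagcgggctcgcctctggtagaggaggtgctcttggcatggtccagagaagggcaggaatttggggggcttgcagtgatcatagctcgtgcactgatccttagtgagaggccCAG

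The introns with the largest excess in the auxin control were ranked among 9250 with a depth of at least 50 in both libraries and no exon overlap, of which 324 were higher and 43 lower. SHFL encodes Shiftless, an inhibitor of viral frameshifting. Its 122 bp intron 6, printed above, had 72.5% in the auxin control (44.8 depth, 17 spliced reads) and 29.9% in the control (35.3 depth, 83 spliced reads), a difference of 42.6 points (27.6 to 54.8). SLC16A5, a monocarboxylate transporter, had 60.6% in the auxin control and 22.0% in the control at its last intron, where spliced reads numbered 38 in the auxin control and 479 in the control. MON1B, part of the exchange factor for the late endosomal GTPase Rab7, had 61.9% in the auxin control and 23.8% in the control at intron 3. The introns of SLC16A5 and MON1B are 1699 bp and 557 bp long, and 3 of the 10 measured at most 100 bp.

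RHBDL1, a rhomboid-like protein, had 89.2% in the auxin control and 53.8% in the control at its 70 bp intron 5. ANO9, a member of the anoctamin family, had 41.6% in the auxin control and 6.56% in the control at intron 10, with a warning in both. NAXD, which repairs damaged NADPH and NADH, had 47.0% in the auxin control and 12.8% in the control at its 76 bp intron 6. PHKG2, a catalytic subunit of phosphorylase kinase, had 58.0% in the auxin control and 24.5% in the control at its 69 bp intron 8. ARSA, lysosomal arylsulfatase A, had 65.5% in the auxin control and 33.6% in the control at intron 2. KLHL17, a Kelch-like protein that binds actin, had 62.9% in the auxin control and 32.4% in the control at intron 8. In each of the 10 the interval of the difference lay above 0, which the rule of choice required.

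Introns lower in the auxin control were fewer and longer. Their median length was 349 bp, against 149 bp for the higher ones and 338 bp for all. PAXBP1, which binds the transcription factors PAX3 and PAX7, had 23.9% in the auxin control (35.4 depth, 113 spliced reads) and 55.8% in the control (74.3 depth, 59 spliced reads) at intron 6. The difference of -31.9 points had an interval from -42.1 to -20.6, and coverage in the control carried a warning. AP1G2, a subunit of the AP-1 clathrin adaptor, had 13.1% in the auxin control and 43.2% in the control at intron 6. The neighbouring intron 7 had 5.23% in the auxin control and 21.9% in the control, while intron 15 went the other way with 43.4% in the auxin control and 30.9% in the control.

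MAN2C1, a cytosolic mannosidase, had 30.1% in the auxin control and 50.4% in the control at intron 16. CXXC1, which binds unmethylated CpG as part of a histone H3K4 methyltransferase complex, had 10.7% in the auxin control and 30.4% in the control at intron 4. BUB1B encodes the spindle checkpoint kinase BUBR1, and its intron 7 had 4.89% in the auxin control and 23.4% in the control. These are the introns printed above, and none exceeds 200 bp. OSBPL7, an oxysterol-binding protein relative, had 11.5% in the auxin control and 36.2% in the control at intron 8. GOLGA1, a golgin of the trans-Golgi network, had 25.3% in the auxin control and 48.2% in the control at intron 9. TMEM63A, a mechanosensitive ion channel, had 33.1% in the auxin control and 55.2% in the control at intron 8. TRIM41, a ubiquitin ligase, had 10.2% in the auxin control and 32.2% in the control at intron 2, and MAMDC4 is given with its other introns. A warning stood in 1 of the controls at 5 of the 10, among them CXXC1 and BUB1B in the auxin control.

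**Figure D4:**
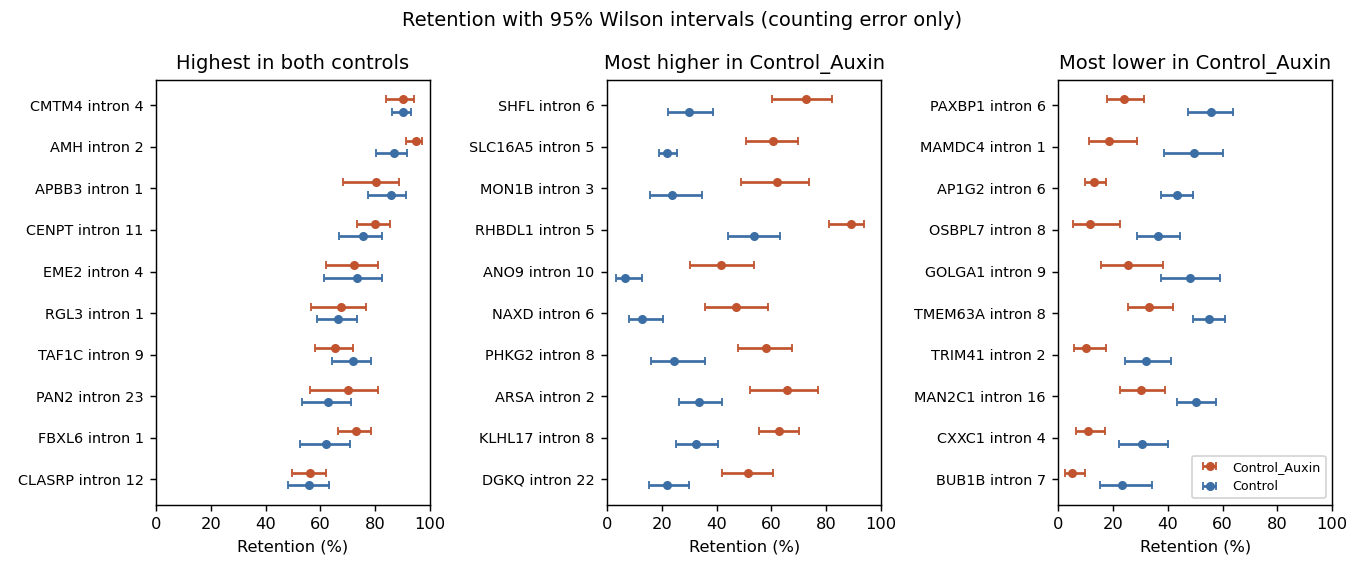
Retention (%) with 95% Wilson intervals at the 10 introns highest in both controls, the 10 most above and the 10 most below the control, auxin control in orange above control in blue. Intervals overlap at each pair in the left panel, and the pairs stand apart in the others because they were ranked by their difference.

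Introns that overlap an annotated exon were ranked apart. SETD4, a lysine methyltransferase, had 63.3% in the auxin control and 12.9% in the control at its 3′ UTR intron 11. FUBP1, which binds single-stranded DNA upstream of MYC, had 81.4% in the auxin control and 38.2% in the control at intron 20. ZNF692, a zinc finger protein, had 67.2% in the auxin control and 26.3% in the control at intron 7, the deepest of the 5. BICD2, a dynein adaptor, had 76.7% in the auxin control and 42.7% in the control. FBXW7, the SCF receptor for cyclin E, had 32.1% in the auxin control and 0 in the control at its 5′ UTR intron 1. Depth plus spliced reads there was 20.6 in the auxin control and 43 in the control. METTL3, the mRNA N6-methyladenosine methyltransferase, was chosen after its values were seen. Its intron 8 had 54.7% in the auxin control and 23.6% in the control, and intron 9 had 38.4% in the auxin control and 26.7% in the control.

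Most genes held introns on both sides. Of 718 genes with 5 or more compared introns, 577 had some introns above the control and others not, every intron was above it in 136 and none in 5. The median difference was above 0 in 620 of these 718 genes. A median over several introns is not comparable with the 71.4% of single introns above the control. MAMDC4 had the most called introns, with 11 higher and 1 lower of 19, numbered in more than 1 transcript. Its intron 18 had 47.4% in the auxin control and 23.0% in the control, but its intron 1 had 18.4% in the auxin control and 49.4% in the control. IDUA, the lysosomal iduronidase, had 5 higher of 8, among them intron 6 with 29.9% in the auxin control and 7.10% in the control. NDOR1, a reductase of cytosolic iron-sulfur protein assembly, also had 5 of 8. DGKQ, a diacylglycerol kinase, had 5 of 14, led by intron 6 with 34.4% in the auxin control and 4.08% in the control.

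ACADVL, the very long-chain acyl-CoA dehydrogenase of mitochondrial fatty acid oxidation, had 15 compared introns, all above the control and 5 of them called. It is the deepest of these genes. Intron 9 had 30.4% in the auxin control and 11.2% in the control, a difference of 19.2 points (16.1 to 22.4). Intron 10 had 66.1% in the auxin control and 53.8% in the control. Intron 8, which opens with GC in place of GT, had 52.9% in the auxin control and 39.9% in the control. Intron 4 had 1.01% in the auxin control and 0.840% in the control. The last 2 are printed with the first 6 and last 3 bases in capitals, because 2 short introns of 1 transcript differ so widely in baseline retention.
ACADVL intron 8 (chr17:7222082-7222176, plus strand): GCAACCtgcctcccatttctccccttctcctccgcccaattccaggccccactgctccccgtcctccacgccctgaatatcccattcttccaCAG
ACADVL intron 4 (chr17:7220677-7220765, plus strand): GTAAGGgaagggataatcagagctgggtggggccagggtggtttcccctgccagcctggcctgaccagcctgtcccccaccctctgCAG

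Genes with the most lower introns had 2 each. DHX34, a helicase of nonsense-mediated decay, had 13.7% in the auxin control and 31.9% in the control at intron 10, and 9.55% in the auxin control and 26.1% in the control at intron 16. IZUMO1, known as the sperm protein of egg binding, had 22.5% in the auxin control and 68.3% in the control at intron 5. Depth plus spliced reads there was at most 37.9. ATXN7L2, related to the ataxin-7 subunit of the SAGA complex, had 11.2% in the auxin control and 23.1% in the control at intron 1. MAPKBP1 had 2 lower and 2 higher of 11 introns, and AP1G2 had 2 lower and 1 higher of 13.

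Genes of the splicing machinery were compared by list. The SR proteins, which bind exonic enhancers, and the CLK kinases that phosphorylate them had 27 introns, none higher and 2 lower (7.41%, against 0.827% of all introns). SRSF1 intron 3 had 10.6% in the auxin control (141 depth, 1162 spliced reads) and 35.0% in the control (246 depth, 422 spliced reads), a difference of -24.4 points (-28.4 to -20.4). SRSF2 intron 2 had 7.54% in the auxin control and 19.9% in the control. Both overlap an annotated exon, so exon inclusion can enter the ratio, and none of the list's 25 other introns was called. The median difference of the list was 0.10 points, against 0.823 for all introns. Spliced reads relative to the median intron were higher in the auxin control at 24 of the 27, and their part in the retention values was not tested. The SRSF1 intron is printed because its difference is the largest in the lists of splicing and decay factors.
SRSF1 intron 3 (chr17:58005601-58005800, minus strand): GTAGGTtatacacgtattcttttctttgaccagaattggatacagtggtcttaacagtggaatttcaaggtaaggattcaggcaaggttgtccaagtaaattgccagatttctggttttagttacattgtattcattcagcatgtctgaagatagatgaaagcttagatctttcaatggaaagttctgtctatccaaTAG

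The hnRNP proteins, which often oppose SR proteins at exons, had 2 higher introns of 27 (7.41%, against 5.24%). HNRNPA1 intron 10 had 54.0% in the auxin control and 34.9% in the control. HNRNPM intron 6 had 56.4% in the auxin control and 39.8% in the control, a difference of 16.6 points (12.1 to 21.0), and both overlap an exon, which leaves none called among the 20 introns without overlap. Spliceosome proteins had 8 higher and 1 lower of 95, or 8.42% and 1.05%. RBM5, which regulates exon definition, had 27.7% in the auxin control and 11.9% in the control at intron 17. XAB2, a component of the catalytic spliceosome, had 12.5% in the auxin control and 0 in the control at intron 18. RBM25, a U1-associated factor, was the lower one, with 4.36% in the auxin control and 19.7% in the control at intron 15. Nonsense-mediated decay factors had none higher (against 5.24% of all introns) and 3 lower of 31 (9.68%, against 0.827% of all introns). The lower introns were the pair in DHX34 and SMG5 intron 20, which had 33.6% in the auxin control and 45.0% in the control. Medians of the list were 1.49% in the auxin control and 1.57% in the control, and its shares were not matched for baseline retention.

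MAT2A makes S-adenosylmethionine, and its last introns are known for regulated retention. Intron 7 had 15.1% in the auxin control and 11.3% in the control, and intron 6 had 11.6% in the auxin control and 13.3% in the control. Neither is the last of the 8 introns of MAT2A, for which no value is given here. None of the list's 7 introns was called. OGT and OGA add and remove O-GlcNAc and are likewise known for a detained intron. Their 4 compared introns were not called, and OGT intron 20 had 0.723% in the auxin control and 0.328% in the control. The detained introns were not identified among the 4, so these values do not show how the detained introns behaved. Median retention of the 4 was 0.608% in the auxin control and 0.242% in the control, which left little room for a call.

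The integrated stress and unfolded protein response list had 6731 spliced reads in the auxin control and 23609 in the control over 29 introns. DDIT3, the stress transcription factor CHOP, accounted for the 2 higher introns (6.90%, against 5.24% of all). Its intron 3, which overlaps an annotated exon, had 32.0% in the auxin control (17.4 depth, 36 spliced reads) and 8.24% in the control (37.9 depth, 422 spliced reads). Its intron 1 had 19.1% in the auxin control and 6.23% in the control. At intron 3 depth was lower in the auxin control as well, but less so than spliced reads. Without exon overlap 1 of 28 introns of the list was higher.

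The p53 targets had 5 higher introns of 40 (12.5%, against 5.24% of all) and none lower. Of the 5, 3 overlap an annotated exon, and without overlap 2 of 37 were higher (5.41%, against 4.65% of all introns without overlap). The list held 5107 spliced reads in the auxin control and 8593 in the control, but its median intron differed little from the median of all introns (-0.10 on the log2 scale above). PLK3, a stress-activated polo-like kinase, had 23.7% in the auxin control and 9.18% in the control at intron 7, and 19.1% in the auxin control and 3.73% in the control at intron 11. GADD45A, a growth arrest and DNA damage protein, had 15.5% in the auxin control and 3.23% in the control at intron 2. TNFRSF10B, the death receptor DR5, had 66.8% in the auxin control and 56.6% in the control at intron 5. FDXR, the mitochondrial ferredoxin reductase, had 15.2% in the auxin control and 1.83% in the control at intron 8. The overlapping introns are PLK3 intron 7 and those of GADD45A and TNFRSF10B. Interferon response genes had 3 higher of 50 (6.0%), 2 in PARP10, an ADP-ribosyltransferase, and 1 in STAT2, the signal transducer of type I interferon.

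Cell cycle genes had more spliced reads in the auxin control. The DNA replication list held 21248 in the auxin control and 7614 in the control over 62 introns. Of these introns 2 (3.23%, against 5.24% of all introns) were higher in retention and none lower (against 0.827%). RFC4, a clamp loader subunit, had 34.8% in the auxin control and 20.9% in the control at intron 9. TIMELESS, of the fork protection complex, had 19.5% in the auxin control and 9.08% in the control at intron 23. Cohesion genes had 5 higher and 1 lower of 46, or 10.9% and 2.17%, against 5.24% and 0.827% of all introns. The 5 higher introns lie in 3 genes. CHTF18, the clamp loader of cohesion establishment, held both kinds, with 34.4% in the auxin control and 52.1% in the control at intron 7 and 50.3% in the auxin control and 38.3% in the control at intron 9. ESPL1, which encodes separase, had 31.2% in the auxin control and 10.2% in the control at intron 22, where the control had 3.64 depth and 32 spliced reads.

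Centriole and centrosome genes had 12 higher and 2 lower of 112 introns, or 10.7% and 1.79%, against 5.24% and 0.827% of all introns. Their median difference was 1.24 points, against 0.823 for all introns. Baseline retention of the list was higher, with medians of 4.41% in the auxin control and 2.81% in the control. All introns had 2.75% in the auxin control and 1.68% in the control, and the shares were not matched for this. TUBG2, a gamma-tubulin, had 44.4% in the auxin control and 17.8% in the control at intron 5, and its introns 7 and 8 were also higher. CEP135, a centriole assembly protein, had 34.5% in the auxin control and 3.23% in the control at intron 16. This intron was thinly covered, with 12.1 depth and 23 spliced reads in the auxin control and 1 depth and 30 spliced reads in the control. ASPM, a spindle pole protein, was lower, with 16.4% in the auxin control and 35.7% in the control at intron 11, although its interval held 0. The anaphase-promoting complex and spindle checkpoint list had 2 higher and 3 lower of 46, or 4.35% and 6.52%, against 5.24% and 0.827% of all introns. FZR1, a co-activator of the complex, had 17.5% in the auxin control and 4.66% in the control at intron 6, while ANAPC4 had 6.48% in the auxin control and 21.4% in the control at intron 23.

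Housekeeping lists held no called intron, against 5.24% higher and 0.827% lower of all introns. Low retention limits this comparison. An intron whose mean of both controls is under 5% cannot reach the difference needed for a call. None of the 9619 such introns was called. The 22 introns of ribosomal protein genes had medians of 1.47% in the auxin control and 0.53% in the control, and 21 of them were above the control. None of the 43 proteasome, 58 aminoacyl-tRNA synthetase and 31 mitochondrial ribosomal protein introns was called. Their medians in this order were 1.93%, 1.89% and 2.50% in the auxin control and 1.46%, 1.38% and 1.05% in the control. All these medians are under 5%, as are those of all introns, 2.75% in the auxin control and 1.68% in the control. The lists were not matched to all introns for baseline retention, so the lack of calls cannot show that they differ. MRPL43 intron 3 had 88.3% in the auxin control and 86.4% in the control, and EARS2 intron 9 had 85.2% in the auxin control and 84.6% in the control, with exon overlap at both. Heat shock genes had 17 introns and none called, with 31579 spliced reads in the auxin control and 18003 in the control, and HSF1, their transcription factor, had 12.9% in the auxin control and 7.13% in the control at intron 4. The SCF ubiquitin ligase subunits had 1 higher of 23, the FBXW7 intron above. The aryl hydrocarbon receptor list and the epithelial markers had 5 introns each and none called. Medians of the aryl hydrocarbon receptor, epithelial and heat shock lists were also under 5% in each control, and these lists were not matched for baseline retention either.

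**Figure D5:**
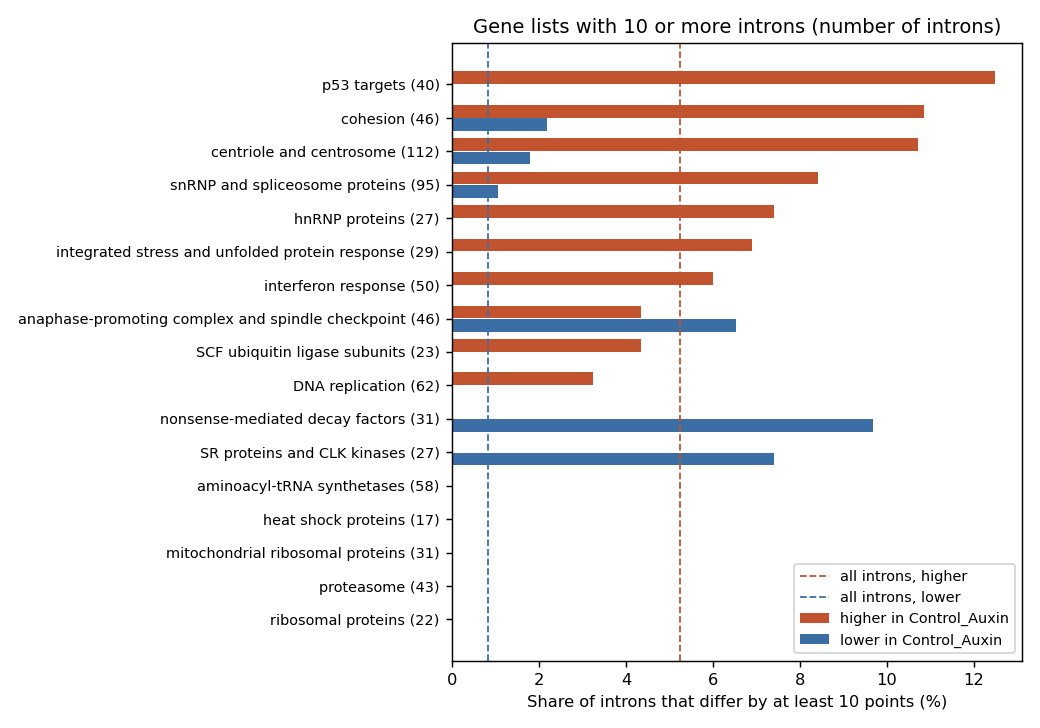
Share of introns (%) that differ by at least 10 points for each gene list with 10 or more introns, orange for higher and blue for lower in the auxin control. Dashed lines mark the shares over all introns, 5.24% and 0.827%, and the highest bar, 12.5% for p53 targets, becomes 5.41% without introns that overlap an exon.

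CDCA5 and TUBGCP6 are genes in which the splicing factors of the study have been examined. CDCA5 encodes sororin, which protects cohesin on replicated chromosomes. Its intron 1, printed above, had 21.2% in the auxin control (40.7 depth, 151 spliced reads) and 3.77% in the control (2.70 depth, 69 spliced reads), a difference of 17.5 points (8.54 to 24.3). Introns 2, 3 and 5 were not called, with 3.01%, 0.869% and 8.04% in the auxin control and 0.307%, 1.68% and 6.59% in the control. In the depleted libraries intron 1 had 33.0% with WBP11 auxin, against 21.2% in the auxin control. It had 69.2% with SNW1 siRNA and 29.9% with WBP11 siRNA, against 3.77% in the control.

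TUBGCP6 encodes a subunit of the gamma-tubulin ring complex that centriole duplication requires. Of its 14 introns compared, intron 20 had 16.8% in the auxin control and 6.40% in the control and intron 22 had 14.1% in the auxin control and 2.82% in the control. Intron 18 was lower, with 22.3% in the auxin control and 39.5% in the control, a difference of -17.2 points (-30.6 to -2.99). Intron 23, of 71 bp, was high in both, with 41.7% in the auxin control and 36.1% in the control. With WBP11 auxin the introns 18, 20, 22 and 23 had 59.3%, 74.4%, 63.3% and 85.6%. With SNW1 siRNA they had 63.9%, 38.9%, 21.7% and 62.8%, and with WBP11 siRNA 75.5%, 40.2%, 4.53% and 41.4%. The intron called lower and the one high in both are printed. WBP11 and SNW1 themselves had no intron among those compared.
TUBGCP6 intron 18 (chr22:50219457-50219643, minus strand): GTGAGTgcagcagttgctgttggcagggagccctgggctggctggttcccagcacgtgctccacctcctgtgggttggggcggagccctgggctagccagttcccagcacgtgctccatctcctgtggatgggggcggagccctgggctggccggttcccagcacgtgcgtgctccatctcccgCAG
TUBGCP6 intron 23 (chr22:50218118-50218188, minus strand): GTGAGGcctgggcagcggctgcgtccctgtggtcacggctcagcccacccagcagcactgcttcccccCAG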

How the data were processed

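The headers of the authors' 3 tables name IRFinder and STAR alignments to hg38, and each table sets 1 depleted library against 1 control. RSEM, bedtools and hg38 are named in the submitters' processing notes, with versions not given in the sources used here. As deposited by the authors, the retention ratio is a fraction, depth is an average coverage signal, and spliced reads are a count. Reads of overlapping exons can enter the ratio. Both siRNA tables held the same control values at all 13412 shared introns.

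Introns were matched to GENCODE release 29, and 13286 of 13297 had identifiers with a current symbol. Differences are auxin control minus control. With single libraries no p-value was computed. Reads are not independent molecules, so intervals cover counting error only. The call rule was run on data simulated with counting error alone, which cannot show how libraries of the same cells vary. Members and the 24 gene lists were chosen with earlier results of these data known. Named introns were the 10 highest in both controls, the 10 most above and 10 most below at a depth of 50, the leading introns of each list, WBP11, SNW1, CDCA5, TUBGCP6, genes with most called introns, U12-type introns and 5 with exon overlap. Further called members of lists, METTL3, KRT18 and CDH1 were chosen after their values were seen. Alternatives changed the depth minimum, size rule, warnings, exon overlap, centring and the introns kept, among them those also listed in the WBP11 siRNA table. Python 3.11.15, pandas 2.3.3, NumPy 2.4.6, SciPy 1.17.1 and matplotlib 3.10.9 were used.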

Additional observations from a re-analysis of the deposited data

How the results depend on the processing

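No alternative reversed a direction. The counts were 697 higher and 110 lower introns. They moved to 397 and 49 at a depth of 50, 217 and 24 at a depth of 100, 432 and 59 without warnings, and 200 and 30 with 1 intron a gene. With a difference of 5, 15 and 20 points they were 1784 and 353, 286 and 43, and 133 and 18. A 2-fold rule with a pseudocount of 0.01 gave 2829 and 533, and intervals away from 0 left 49 lower. The share of introns called higher was 5.24%, and 4.06% at a depth of 50, 3.49% at a depth of 100 and 3.87% with 1 intron a gene. The cause was not tested. The share of higher among called introns was 86.4%, and 81.9% after centring on the median difference.

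Medians, 2.75% in the auxin control and 1.68% in the control, moved to 2.63% and 1.61% at a depth of 20, 2.47% and 1.53% at 50, and 2.46% and 1.52% at 100. They were 2.31% and 1.36% without warnings, 2.60% and 1.59% without exon overlap, and 3.52% and 2.19% without introns under 1% in both. At the 8863 introns also listed in the WBP11 siRNA table, which holds the same control values, the medians were 3.67% and 2.46%. With 1 intron a gene they were 2.32% and 1.42%. The median difference was 0.823 points, and 0.724, 0.790, 1.20, 0.909 and 0.731 in these 5 cases. Introns at 10% or more in both, 1202, became 520 at a depth of 100, 763 without warnings, 334 with 1 intron a gene, 2561 at 5% and 493 at 20%. After the data were seen, 2 alternatives were added. Leaving out the introns in the last of the 5 position classes gave 441 higher introns, a median of 2.54% in the auxin control and a difference of 0.637 points, and a ratio recomputed from depth and spliced reads stayed close. The gap between the shortest and the longest introns, 1.64 points, ranged from 1.33 to 2.13 over the sets of introns. Of 102 values of single lists, 13 moved by over 1.5 times, 6 at a depth of 50, 6 without exon overlap and 1 after centring. Among them the SR and hnRNP lists lost both of their called introns without exon overlap. No paired analysis was possible because the labels carry no replicate numbers and each group is 1 library. Leaving out a replicate was not possible for the same reason. Depth limits the single calls, since the interval lay away from 0 at 492 of 697 higher and 49 of 110 lower introns.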

Other observations

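Spliced reads at the compared introns differed between the controls by gene list, beside the retention values. They are given as the auxin control over the control on the log2 scale, with the median intron at 0. All 43 proteasome introns were above the median intron (median 0.63), as were 61 of 62 DNA replication introns (median 1.84) and 23 of 27 hnRNP introns (median 0.73). Only 3 of 29 integrated stress and unfolded protein response introns were above it (median -1.53), and 8 of 50 interferon response introns (median -0.45). None of the 5 introns of colorectal epithelium markers was above it (median -1.0). Ribosomal protein introns lay close to it, with 7 of 22 above and a median of -0.13. Each value rests on 1 library per control, and introns of 1 gene share their transcripts.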
